A study of Mus musculus with 40 samples.

Results

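The nuclear receptor of pioglitazone (Pio), its relatives, their partners and their cofactors were followed in RNA sequencing counts from 40 mouse livers. The 10 genes were chosen by name, from the rows of the count tables that carry their symbols. They are the peroxisome proliferator-activated receptors Pparg, Ppara and Ppard, the retinoid X receptors Rxra, Rxrb and Rxrg, the coactivators Ppargc1a and Ppargc1b, and the corepressors Ncor1 and Nrip1. All 10 were among the 40594 genes found in both tables, and all 10 passed the filter on low values, at 1 CPM (counts scaled to the same library size) in at least 5 mice, which left 12942 genes tested.

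The mice were male, 5 months old and labelled C57BL6/J, and formed 8 groups of 5. Wildtype mice (WT) and mice lacking PPARγ in the liver (KO) were fed control diet alone (control) or with Pio (Pio), or a high-fat diet alone (HFD) or with Pio (HFD-Pio). KO mice carried loxP-flanked Pparg alleles and a Cre recombinase driven by the albumin promoter, which acts in hepatocytes, so other liver cells keep the gene. WT mice carried neither allele, and the KO design has no group with only one of them. Each genotype has its own count table, and genotype cannot be told apart from table, so tests compared groups within a genotype or the Pio effect between genotypes. Labels do not say that mice of a group came from separate litters or cages, and p values measure the spread between these mice. In bulk liver, fewer cells of a type and less RNA per cell cannot be told apart.

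PPARs are ligand-activated transcription factors that bind DNA as heterodimers with an RXR, at response elements built from repeats of the letters AGGTCA. In the liver PPARα drives fatty acid oxidation and ketogenesis during fasting, PPARγ drives lipid storage and is the receptor of Pio and other thiazolidinediones, and PPARδ is found in many tissues. RXRs also serve as partners of the liver X, farnesoid X, retinoic acid and thyroid hormone receptors. PGC1α and PGC1β, the products of Ppargc1a and Ppargc1b, are coactivators that dock on PPARs and other receptors and raise the expression of mitochondrial and gluconeogenic genes, and NCoR1 and RIP140 (Nrip1) recruit deacetylases to receptors and oppose them.

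Windows around annotated starts (250 bases before and 50 after, RefSeq, GRCm38.p6) were held for 9 of the 10 genes, 16 windows in all. A receptor motif AGGTCA on either strand lay in 4 of the 16 (25.0%), against 16.3% of 32851 windows of the same length. None of the 16 held the receptor motif repeated with 1 base between (0.0396% of all windows), the cAMP response element TGACGTCA (1.79%) or the E box CACGTG of clock factors (7.15%). A match of letters is a description of the sequence and not a binding site. The receptor that Pio activates and its main liver partner hold 3 of these 4 windows, and the 100 bases before each start are shown because single receptor motifs lie in them. Coordinates are chr6:115361044-115361143, chr6:115362249-115362348 and chr2:27709192-27709291, all on the + strand, and receptor motifs are in capitals:
Pparg, first start: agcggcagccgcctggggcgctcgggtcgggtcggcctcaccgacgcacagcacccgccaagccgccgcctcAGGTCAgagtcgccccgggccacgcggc
Pparg, second start: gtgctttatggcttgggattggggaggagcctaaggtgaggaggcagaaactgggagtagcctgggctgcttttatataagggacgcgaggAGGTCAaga
Rxra, second start: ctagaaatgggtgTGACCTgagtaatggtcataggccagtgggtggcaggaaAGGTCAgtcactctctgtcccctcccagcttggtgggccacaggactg
In the Rxra window one receptor motif reads on each strand. Counts are totals per gene, so the starts of Pparg or Rxra could not be told apart in what follows.

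Libraries held 15788242 to 49857017 counts in WT and 21542958 to 28334251 in KO mice, and the lowest count of any of the 10 genes in a mouse was 32, for Rxrg. One library stood apart from the other 39. KO Pio mouse 13 had a median rank correlation of 0.785 with the others, against 0.913 to 0.970 for the other mice. It had the lowest level of the 40 for Ppargc1a (4.91 CPM) and Ncor1 (84.3 CPM), the highest for Rxrb (110 CPM), and the second highest for Rxra (1072 CPM) and Ppargc1b (47.2 CPM). Its summed hepatocyte markers (5 of 6 in the tables) were the lowest of 40 mice at 33500 CPM, and its summed 17 clock genes were the second highest at 1558 CPM. The hepatocyte markers did not all go the same way. Its Alb was the lowest of the KO Pio mice (10660 CPM), as were its Ttr, Apob and Cps1, but its Apoa1 was the highest (18100 CPM). WT HFD mouse 829 was similar in part, with the highest Ppard (73.4 CPM), Rxra (1424 CPM) and Ppargc1b (50.2 CPM) and the highest clock sum (1631 CPM). Results are therefore given with all 40 mice and, where it matters, with the 39 mice left without mouse 13.

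**Figure D1:**
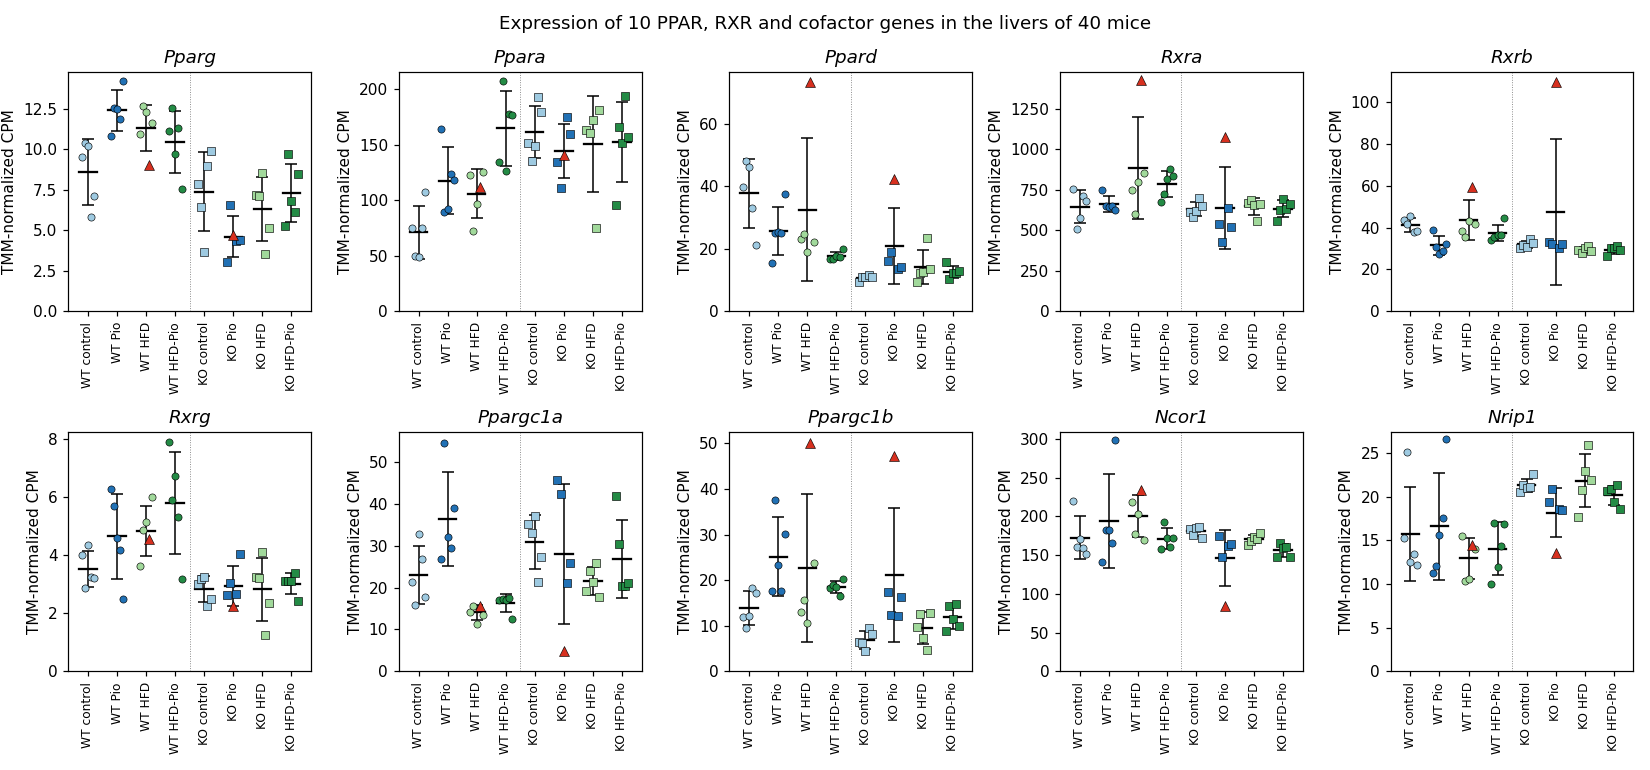
TMM-normalized CPM (vertical axes, linear, from 0) of the 10 genes in the 8 groups of 5 mice; circles are WT and squares KO mice, black lines and bars are mean ± SD, and red triangles mark WT HFD mouse 829 and KO Pio mouse 13. Mouse 829 lies far above its group for Ppard and Ppargc1b, and mouse 13 above its group for Ppard, Rxrb and Ppargc1b and below it for Ppargc1a and Ncor1.

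On a scale per length, which allows genes to be compared, the order of levels ran from Rxra down to Nrip1 or Rxrg. Rxra, the main RXR of hepatocytes, had 136 ± 34.3 CPM per kb of exon in WT mice and 116 ± 22.5 in KO mice (mean ± SD, n = 20 each), and lay above 97.6% of tested genes in its mean level over the 40 mice. Ppara was next with 29.96 ± 11.2 and 39.7 ± 8.04 CPM per kb, and Ncor1 with 14.4 ± 2.82 and 12.8 ± 1.71. Rxrb followed at 9.69 ± 1.80 and 8.69 ± 4.47 CPM per kb. These first 4 places were clear within mice, since each gene was above the next in at least 19 of the 20 mice of either genotype.

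The lower 6 places were less distinct. In WT mice Ppargc1b had 5.03 ± 2.42 CPM per kb, Ppard 3.78 ± 1.92, Pparg 3.62 ± 0.713 and Ppargc1a 3.40 ± 1.64. Ppard exceeded Pparg in 8 of 20 WT mice and Pparg exceeded Ppargc1a in 11 of 20, so these neighbours did not differ beyond their spread. In KO mice Ppargc1a came next with 4.06 ± 1.51 CPM per kb and was above Ppargc1b, at 3.10 ± 2.25, in 16 of 20 mice, whereas Pparg (2.16 ± 0.709) exceeded Ppard (1.95 ± 0.976) in 11 of 20. Divided by the longest transcript in place of the union of exons, 8 of the 10 genes kept their place in WT and 7 in KO mice, and Rxra, Ppara, Ncor1 and Rxrb stayed in the first 4 places. The order thus depends on the gene model only among the less expressed members.

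**Figure D2:**
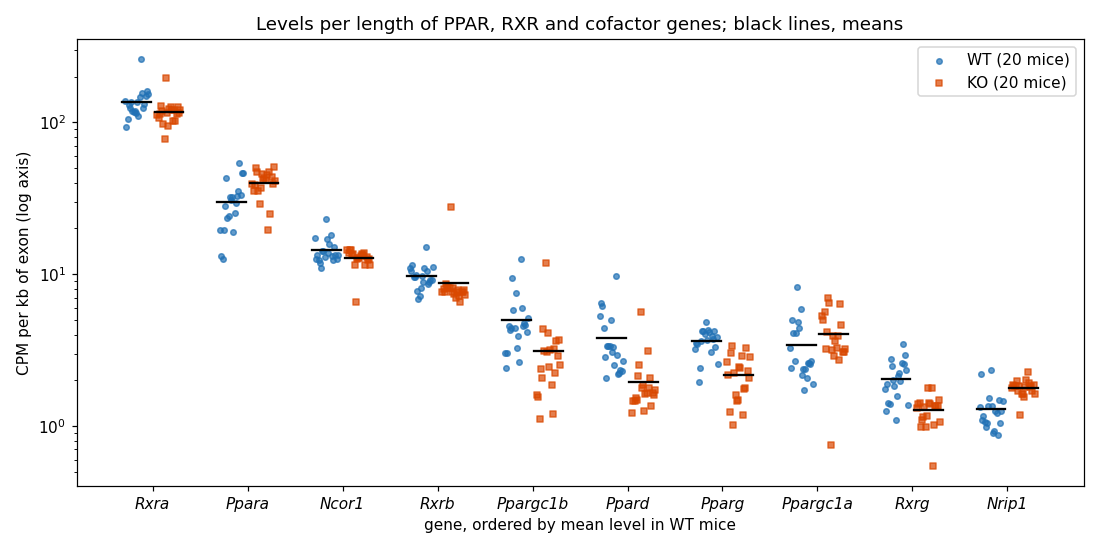
CPM per kb of exon (vertical axis, logarithmic) of each gene in each of 20 WT (circles) and 20 KO (squares) mice, with means as black lines, genes ordered by their WT mean. Rxra stands above all other genes in both genotypes, and the genes from Ppargc1b to Nrip1 overlap.

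Of the RXRs and of the PPARs, 1 member made up most of the level. Rxra made up 91.9 ± 1.29% of the summed RXR level per length in WT and 92.2 ± 1.59% in KO mice (n = 20 each), with a lowest single mouse of 87.3%. Rxrg, the form known from muscle and brain, contributed 1.42 ± 0.452% and 1.04 ± 0.308%. Of the PPAR level per length, Ppara supplied 78.2 ± 9.71% in WT and 90.2 ± 3.23% in KO mice, and Pparg 10.3 ± 3.30% and 4.95 ± 1.38%. The PGC1 pair was more even, with Ppargc1a at 40.8 ± 10.4% of its sum in WT and 58.6 ± 16.8% in KO mice.

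The 12 comparisons were fitted in 1 edgeR model, and a gene was called when its adjusted p was at most 0.05 over all 12942 genes. In WT mice none of the 10 genes was called in any comparison with all 40 mice. On the same rule 3.91% of tested genes were called for Pio on control diet, 1.08% for Pio on HFD, 1.31% for HFD without Pio and 1.22% for HFD with Pio. An unadjusted p under 0.05 was reached by 4, 2, 4 and 2 of the 10 genes. Over all 12942 tested genes it was reached by 2314, 2020, 1710 and 1837. In KO mice 2 genes, Ppard and Ppargc1b, were called as higher for Pio on control diet, where 9.01% of tested genes were called. None was called for Pio on HFD (0.0155% of tested genes), HFD without Pio (0.185%) or HFD with Pio (4.96%), with 0, 0 and 4 of the 10 genes at an unadjusted p under 0.05. Of all 12942 tested genes, 134, 595 and 3106 were under 0.05 in these 3 comparisons.

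Without mouse 13 the calls moved to the WT mice. In the fit of 39 mice 4 genes were called for Pio on control diet in WT mice, when 15.6% of tested genes were, 2 for Pio on HFD (11.6%), 1 for HFD without Pio (6.55%) and 1 for HFD with Pio (8.68%). In KO mice 0 of the 10 genes were called for Pio on control diet (0.512% of tested genes), for Pio on HFD (0% of tested genes), for HFD without Pio (0.388%) or for HFD with Pio (0.0931%). Both fits gave similar fold changes in WT mice, and the values of each are set side by side gene by gene.

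**Figure D3:**
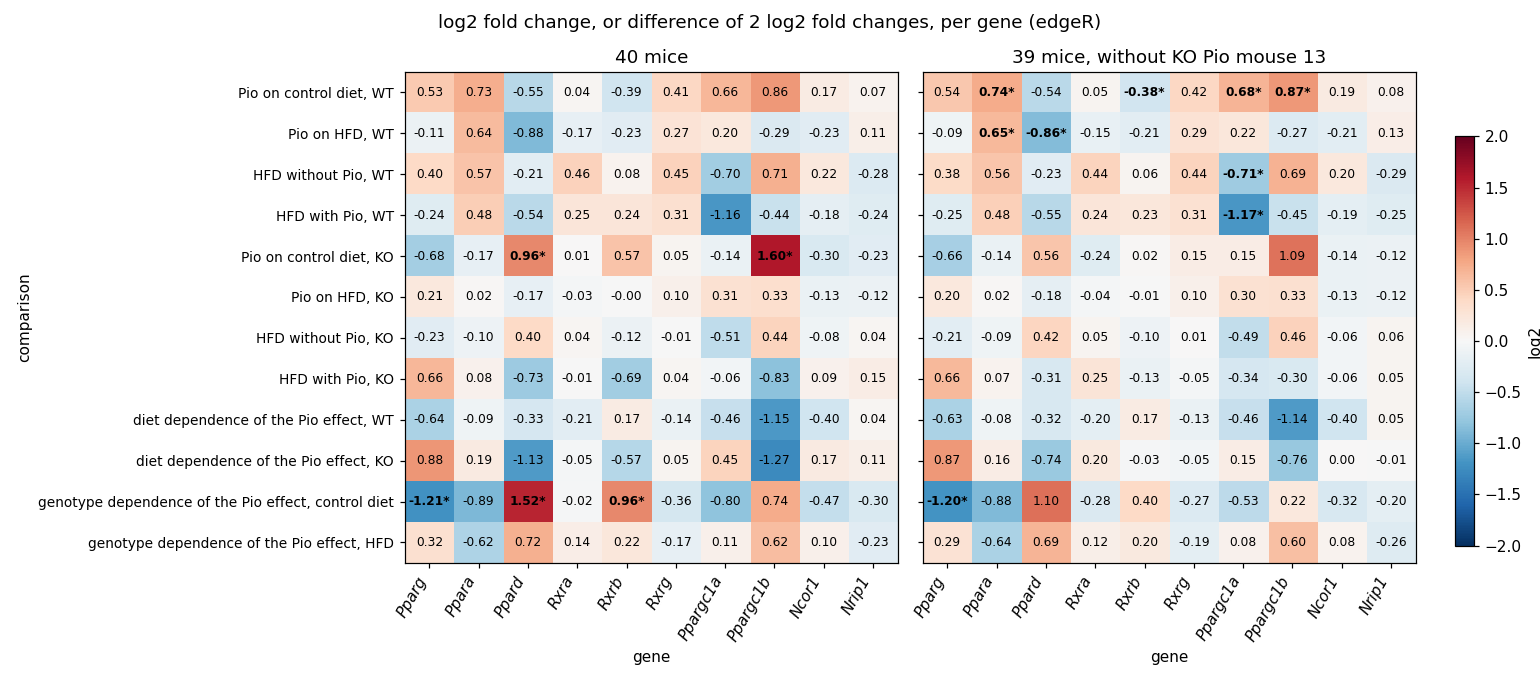
Colour and printed numbers give the log2 fold change, or for the lower 4 rows the difference between 2 log2 fold changes, of each gene (columns) in each of the 12 comparisons (rows), with 40 mice on the left and 39 on the right; an asterisk marks an adjusted p of at most 0.05. With 40 mice the 5 calls lie in KO mice or in the difference between genotypes, and with 39 mice 8 of 9 lie in WT mice.

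Pparg, the receptor of Pio and the gene targeted in KO mice (ENSMUSG00000000440, chromosome 6, 115360951 to 115490399), was measured at 9.53, 10.3, 10.2, 5.79 and 7.08 CPM in the WT control mice and 10.8, 12.5, 12.5, 11.9 and 14.2 CPM in the WT Pio mice. Every WT Pio mouse was above every WT control mouse (8.59 ± 2.05 and 12.4 ± 1.24 CPM, mean ± SD, n = 5; exact permutation test, two-sided, p = 0.00794, the smallest that 5 against 5 allows). Groups did not overlap, in either direction, for 7.53% of tested genes in the comparison. Its log2 fold change was 0.53 (standard error 0.23, adjusted p = 0.199 by edgeR's quasi-likelihood test). Limma with sample weights gave 0.85 and called it (adjusted p = 0.00231), as it did 23.9% of tested genes. Pparg was not called by DESeq2 (0.54, adjusted p = 0.146) or with WT mice fitted alone (0.52, adjusted p = 0.0626, edgeR). Without KO Pio mouse 13 neither edgeR (0.54, adjusted p = 0.0912) nor DESeq2 (0.54, adjusted p = 0.0779) called it. Of the 40 edgeR fits that leave out 1 mouse, 0 did.

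In KO mice the same comparison ran the other way. KO control mice had 7.82, 6.43, 3.67, 8.97 and 9.90 CPM of Pparg and KO Pio mice 3.01, 6.57, 4.72, 4.30 and 4.37. The groups overlapped through KO control mouse 3 and KO Pio mouse 12, and the log2 fold change was -0.68 (standard error 0.23, adjusted p = 0.0558, edgeR). It passed the threshold without KO control mouse 3, KO HFD mouse 9 or KO Pio mouse 12, with adjusted p values between 0.0187 and 0.245 over the 40 fits that leave out 1 mouse. DESeq2 also called it (log2 fold change -0.67, adjusted p = 0.0435), as did limma with sample weights (-0.76, adjusted p = 0.0219). Without mouse 13 it was not called by edgeR (-0.66, adjusted p = 0.245) or DESeq2 (-0.69, adjusted p = 0.147). Limma with sample weights still called it as lower without that mouse, as it called 9.20% of tested genes. KO mice fitted alone, with mouse 13, did not give a call (-0.65, adjusted p = 0.180, edgeR). Counts include exons outside the deleted part and RNA of cells without Cre, and Gm44079 overlaps Pparg on the opposite strand, and these totals are no measure of the deletion.

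The difference between these 2 Pio effects was called. For Pparg it was -1.21 (log2, KO minus WT; standard error 0.32, adjusted p = 0.0219, edgeR's interaction test), and 7.87% of tested genes were called for this difference on control diet. It was called in all 40 fits that leave out 1 mouse, between -1.37 and -1.07, and with 39 mice at -1.20 (adjusted p = 0.0250), when 5.78% of tested genes were called. On HFD the corresponding difference was 0.32 with 40 mice, where 0.0927% of tested genes and none of the 10 members were called, and 0.29 with 39 mice (0.163% and none). Pparg itself had 11.3 ± 1.44 CPM in WT HFD, 10.4 ± 1.92 in WT HFD-Pio, 6.29 ± 1.97 in KO HFD and 7.27 ± 1.79 in KO HFD-Pio mice.

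Some of the 8 markers of fat cells listed here were higher beside Pparg with Pio on control diet in WT mice. The summed level of 8 adipocyte markers was 13.2 to 18.6 CPM in WT control and 140 to 649 CPM in WT Pio mice. Of that sum Cidea, Cfd and Fabp4 had 137, 207 and 85.8 CPM (group means with Pio), and these are themselves targets of PPARγ. The defining markers Adipoq, Plin1 and Lep were near 0 with Pio, at 0.0408, 0.0273 and 0.00516 CPM. Retn, the resistin gene, had 0.0449 CPM in WT control and 3.10 CPM in WT Pio mice, of which the lowest had 2.33 CPM, and Nnat had 4.38 and 3.08 CPM. On HFD, WT mice without and with Pio had 0.979 and 67.0 CPM of Cidea and 11.2 and 283 CPM of Cfd (group means). Fabp4 had 13.0 and 23.1 CPM there, Nnat 3.96 and 3.34 CPM, and Pparg 11.3 and 10.4 CPM. The part of fat cells in the Pparg values was not tested.

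Ppara, the receptor of fibrates and fasting fatty acids (ENSMUSG00000022383, chromosome 15, 85734983 to 85802819), had 75.2, 50.2, 48.5, 74.7 and 107 CPM in WT control mice and 165, 89.5, 92.2, 124 and 118 CPM in WT Pio mice. Only WT control mouse 835, the highest of its group, reached into the range of the Pio group. Its log2 fold change was 0.73 (standard error 0.22, adjusted p = 0.0568, edgeR), and 6 of the 40 fits that leave out 1 mouse called it, with adjusted p from 0.0161 to 0.148. These 6 left out WT HFD mouse 827, WT control mouse 835, KO HFD mouse 9, KO Pio mouse 12, KO Pio mouse 13 or KO HFD-Pio mouse 16. With 39 mice it rose (log2 fold change 0.74, adjusted p = 0.0199), as it did with DESeq2 on all 40 mice (0.74, adjusted p = 0.0245).

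Pio gave higher Ppara values on HFD too. WT HFD mice had 123, 72.2, 97.0, 112.2 and 125.8 CPM and WT HFD-Pio mice 135, 208, 127, 178 and 177 CPM, so every treated mouse was above every untreated one (exact permutation test, two-sided, p = 0.00794). Groups did not overlap, in either direction, for 7.12% of tested genes. The log2 fold change was 0.64 (standard error 0.22) with an adjusted p of 0.149 in 40 mice and 0.0476 in 39 mice (edgeR). In KO mice the 4 group means lay between 144 and 162 CPM, and the Pio effect was -0.17 (adjusted p = 0.648) on control diet and 0.02 (adjusted p = 1.000) on HFD by the same test. The difference between genotypes on control diet was -0.89 (standard error 0.32, adjusted p = 0.0688), which DESeq2 put at -0.89 and called (adjusted p = 0.0486). This difference was not called with 39 mice by edgeR (-0.88, adjusted p = 0.101) or DESeq2 (-0.89, adjusted p = 0.0669). Limma with sample weights did not call it either (-0.56, adjusted p = 0.1375), and 3 of the 40 edgeR fits that leave out 1 mouse did.

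HFD without Pio also went with higher Ppara means in WT mice, 106 ± 22.01 against 71.2 ± 23.9 CPM (n = 5). By edgeR the change was 0.57 (log2; standard error 0.22, adjusted p = 0.214, edgeR), and the groups overlapped. With Pio the HFD mean was 165 ± 33.7 against 118 ± 30.4 CPM (0.48, adjusted p = 0.307), called by limma with sample weights (0.59, adjusted p = 0.0189). KO HFD mouse 9, at 74.7 CPM, lay far under the group median of 164 CPM. That mouse also had the highest summed macrophage (859 CPM) and lymphocyte markers (46.9 CPM) of the 40 and the second lowest summed hepatocyte markers (69930 CPM), and the part of these in its Ppara value was not tested.

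On control diet with 40 mice, Ppard (ENSMUSG00000002250, chromosome 17, 28232700 to 28301474) was called as higher with Pio in KO mice and was not called in WT mice. WT control mice had 39.9, 48.2, 46.2, 33.0 and 21.3 CPM and WT Pio mice 15.4, 25.1, 25.3, 25.2 and 37.5 CPM, and the groups overlapped (log2 fold change -0.55, adjusted p = 0.347 in 40 and 0.174 in 39 mice, edgeR). KO control mice were uniformly low at 9.21, 11.0, 11.0, 11.5 and 11.1 CPM, and KO Pio mice had 16.1, 18.8, 42.4, 13.4 and 14.1 CPM. All 5 KO Pio mice were above all 5 KO controls (exact permutation test, two-sided, p = 0.00794), and groups did not overlap, in either direction, for 3.70% of tested genes. The level rose by 0.96 (log2; standard error 0.31; adjusted p = 0.0439, edgeR).

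That rise in KO mice rests in part on mouse 13. Without it the 4 remaining Pio mice were above all controls (exact permutation test, two-sided, p = 0.00794), and the share of all genes for which this held was not counted. The log2 fold change was then 0.56 and the adjusted p 0.503 by edgeR, and DESeq2 did not call it (0.54, adjusted p = 0.476). Limma with sample weights called the rise with and without mouse 13 (9.40% and 9.20% of tested genes). The edgeR call was also lost when any of KO control mice 1 to 5 was left out, with log2 fold changes of 0.56 to 1.09 over all 40 fits. By edgeR the difference from the WT effect was 1.52 (standard error 0.43, adjusted p = 0.0286). Its call was lost without KO control mouse 1, WT control mouse 832 or KO Pio mouse 13 (1.10, adjusted p = 0.0927 without mouse 13). Limma with sample weights called this difference with and without mouse 13 (15.4% and 15.9% of tested genes).

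On HFD, Ppard in WT mice was lower with Pio, and WT HFD mouse 829 carried much of the difference. WT HFD mice had 23.2, 24.8, 19.0, 73.4 and 22.03 CPM and WT HFD-Pio mice 16.6, 16.7, 17.7, 17.3 and 20.0 CPM. The log2 fold change was -0.88 (standard error 0.31, adjusted p = 0.144 in 40 mice, 0.0354 in 39, edgeR), and over the 40 fits that leave out 1 mouse it ranged from -1.004 to -0.34, the last without mouse 829. In KO mice HFD and HFD-Pio groups had 14.2 ± 5.39 and 12.6 ± 1.94 CPM. The 3 genes nearest to the pattern of Ppard over the 8 group means, centred within genotype, were Spi1, Csf2ra and Mapk7, at root mean square differences of 0.08, 0.09 and 0.10 (log2) against a median of 0.38 over 9272 genes. These group means include mice 13 and 829.

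Rxra (ENSMUSG00000015846, chromosome 2, 27676440 to 27762957) was called in none of the comparisons by edgeR. In WT mice it had 644 ± 102 CPM in control, 661 ± 47.4 in Pio, 884 ± 316 in HFD and 785 ± 81.9 in HFD-Pio mice. The HFD effect without Pio was 0.46 (standard error 0.18, adjusted p = 0.239) and ranged from 0.22 to 0.55 in the fits that leave out 1 mouse, since WT HFD mouse 829 alone had 1424 CPM against 599 to 851 in the others. In KO mice the 4 group means lay between 630 and 646 CPM, with mouse 13 at 1072 CPM in the Pio group. Without mouse 13 the KO Pio mice had 528 ± 85.25 CPM (n = 4) against 630 ± 42.8 in controls (n = 5). The log2 fold change for Pio on control diet was then -0.24 (adjusted p = 0.658, edgeR).

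Rxrb (ENSMUSG00000039656, chromosome 17, 34031812 to 34038399), a second RXR found in most tissues, was lower with Pio in WT mice in part of the fits. WT control mice had 43.8, 41.6, 45.4, 38.0 and 38.2 CPM and WT Pio mice 38.97, 30.7, 27.2, 28.6 and 32.2 CPM, where WT Pio mouse 841 alone reached the control range. By edgeR the log2 fold change was -0.39 (standard error 0.22, adjusted p = 0.350) with 40 mice. With 39 mice it fell by 0.38 on the log2 scale (adjusted p = 0.00931, edgeR). Limma with sample weights called it with all 40 (-0.44, adjusted p = 0.000154), as it did 23.9% of tested genes. It was not called with all 40 by DESeq2 (-0.38, adjusted p = 0.3645) or with WT mice fitted alone (-0.40, adjusted p = 0.0655).

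For Rxrb in KO mice 1 library decided the values. KO Pio mice had 33.0, 32.2, 110, 30.2 and 32.0 CPM, and KO controls 30.4 to 34.3 CPM. The log2 fold change of 0.57 (adjusted p = 0.0820) became 0.02 (adjusted p = 0.988) without mouse 13. The difference between genotypes, 0.96 (standard error 0.31, adjusted p = 0.0458, edgeR), became 0.40 (adjusted p = 0.102), and 20 of the 40 fits that leave out 1 mouse did not call it. Those left out KO control mice 1 to 5, KO Pio mouse 13, KO HFD mice 6 or 8, KO HFD-Pio mice 17 to 20, WT control mice 831 to 834 or WT Pio mice 842 to 845. DESeq2 called the difference between genotypes with all 40 mice (0.98, adjusted p = 0.0302) but not without mouse 13 (0.38, adjusted p = 0.107). Limma with sample weights called it with and without mouse 13 (15.4% and 15.9% of tested genes). Rxrg (ENSMUSG00000015843, chromosome 1, 167598384 to 167639623) stayed between group means of 2.84 and 5.82 CPM and was not called in any comparison by edgeR.

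Ppargc1a, whose product PGC1α is induced by fasting and cold (ENSMUSG00000029167, chromosome 5, 51454250 to 51567726), differed with diet in WT mice. WT control mice had 21.4, 15.9, 32.9, 26.9 and 17.7 CPM and WT HFD mice 14.2, 15.7, 11.4, 15.7 and 13.6 CPM. Each HFD mouse was below each control mouse (exact permutation test, two-sided, p = 0.00794), and groups did not overlap, in either direction, for 3.05% of tested genes. On the log2 scale the difference was -0.70 (standard error 0.31, adjusted p = 0.304 in 40 and 0.0495 in 39 mice, edgeR).

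With Pio the diet contrast was wider. WT Pio mice had 26.9, 54.6, 32.0, 29.3 and 38.9 CPM of Ppargc1a and WT HFD-Pio mice 17.0, 17.2, 17.0, 17.6 and 12.5 CPM. The groups did not overlap (exact permutation test, two-sided, p = 0.00794), which held, in either direction, for 6.49% of tested genes. The log2 fold change was -1.16 (standard error 0.31) with an adjusted p of 0.0501 in 40 mice, just above the threshold, and with 39 mice the level fell by 1.17 on the log2 scale (adjusted p = 0.00160). It was called by DESeq2 (adjusted p = 0.0122), by limma with sample weights (0.00181), with WT mice fitted alone (0.00435) and in 9 of the 40 fits that leave out 1 mouse, between -1.25 and -0.97. Those 9 left out WT HFD mouse 829, WT control mice 832 or 833, WT Pio mouse 841, KO HFD mouse 9, KO Pio mice 11, 12 or 13, or KO HFD-Pio mouse 16.

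Pio on control diet went with higher Ppargc1a in WT mice, 36.3 ± 11.1 against 22.9 ± 6.96 CPM (n = 5). By edgeR the change was 0.66 (log2; standard error 0.31, adjusted p = 0.239, edgeR), it was called with 39 mice (0.68, adjusted p = 0.0323), and the groups overlapped. On HFD the Pio effect was 0.20 (adjusted p = 0.800), and the difference between the diets, -0.46, was not called (adjusted p = 0.726). In KO mice the group means were 30.8 CPM in control, 27.9 in Pio, 21.6 in HFD and 26.8 in HFD-Pio mice, and KO Pio mice spread from 4.91 CPM in mouse 13 to 45.7 CPM in mouse 11. Gm42613 overlaps Ppargc1a on the opposite strand and 3 other predicted genes on the same strand, and whether counting used strand is not given in the sources used here.

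Ppargc1b, which codes for PGC1β (ENSMUSG00000033871, chromosome 18, 61298136 to 61400431), was higher with Pio in KO mice on control diet. KO control mice had 6.43, 6.21, 4.43, 9.51 and 8.26 CPM and KO Pio mice 17.4, 12.5, 47.2, 12.3 and 16.3 CPM. Every Pio mouse was above every control (exact permutation test, two-sided, p = 0.00794), and groups did not overlap, in either direction, for 3.70% of tested genes. Ppargc1b rose by 1.60 (log2; standard error 0.36; adjusted p = 0.0115, edgeR), and 39 of the 40 fits that leave out 1 mouse kept the call. The exception was mouse 13: without it the log2 fold change was 1.09, the adjusted p 0.111 and the means 14.6 ± 2.62 (n = 4) against 6.97 ± 1.97 CPM (n = 5). The groups did not overlap without mouse 13 (exact permutation test, two-sided, p = 0.00794, the smallest that 4 against 5 allows). The share of all genes for which this held was not counted. KO mice fitted alone called Ppargc1b without mouse 13 (1.08, adjusted p = 0.0356) but not with that mouse (1.64, adjusted p = 0.0846). DESeq2 called it with all 40 mice (1.63, adjusted p = 0.000709) but not without mouse 13 (1.07, adjusted p = 0.0524). Limma with sample weights called it with and without mouse 13 (9.40% and 9.20% of tested genes).

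In WT mice the same treatment gave Ppargc1b values of 17.5, 37.5, 23.3, 17.6 and 30.1 CPM against 12.0, 9.61, 12.1, 18.3 and 17.2 CPM in controls. WT control mouse 834 lay within the range of the Pio group, and mouse 835 just under it. The log2 fold change was 0.86 (standard error 0.35, adjusted p = 0.165 in 40 mice), and with 39 mice the gene rose by 0.87 (adjusted p = 0.0407, edgeR). The effect in KO minus that in WT mice was 0.74, which was not called (adjusted p = 0.329). DESeq2 gave 0.87 in WT mice (adjusted p = 0.117).

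On HFD no such effect of Pio on Ppargc1b was measured. WT HFD mice had 13.1, 15.6, 10.5, 50.2 and 23.7 CPM and WT HFD-Pio mice 18.3, 18.9, 18.6, 16.6 and 20.4 CPM (log2 fold change -0.29), and KO mice 9.48 ± 3.45 and 11.9 ± 2.59 CPM (0.33). Between the 2 diets the Pio effect differed by -1.15 in WT (standard error 0.49, adjusted p = 0.330) and -1.27 in KO mice (standard error 0.49, adjusted p = 0.360). The values were -0.62 in WT mice without WT HFD mouse 829 and -0.76 in KO mice without mouse 13. No member was called for a diet dependence with 40 mice, where 0.0773% of tested genes were called in WT and 0% in KO mice. With 39 mice none was called either, and 5.25% of tested genes were in WT and 0% in KO mice. The nearest genes to the Ppargc1b pattern were Sox18, Slc16a11 and Ropn1l, at root mean square differences of 0.16, 0.17 and 0.19 (log2) against a median of 0.47. The microRNA gene Mir378a lies within Ppargc1b on the same strand and Gm25301 on the opposite strand.

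The balance of both coactivators in each mouse does not depend on library scaling. Per length, Ppargc1a was 0.997 times Ppargc1b in WT control mice and 0.884 times in WT Pio mice, but 0.443 times in WT HFD and 0.528 times in WT HFD-Pio mice (from mean log2 ratios, n = 5). WT Pio mice had ratios of 0.783 to 1.01 and WT HFD-Pio mice of 0.373 to 0.640, without overlap (exact permutation test, two-sided, p = 0.00794). KO control mice had a ratio of 2.71, KO Pio mice of 0.728, KO HFD mice of 1.46 and KO HFD-Pio mice of 1.33. In KO mice the difference with Pio on control diet was -1.90 (log2), or -1.01 without mouse 13, and that for HFD with Pio was 0.87, or -0.02 without mouse 13. For 24 such tests of 3 ratios, chosen after the values were seen, the lowest adjusted p was 0.0952, so none passed correction. No p of this test can be under 0.00794 with 5 mice against 5. A test at that limit cannot pass a correction over 24 on its own, so this outcome says little about the ratios.

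Of the corepressors, Ncor1 (ENSMUSG00000018501, chromosome 11, 62316426 to 62458541) had group means of 146 to 200 CPM, and Nrip1 (ENSMUSG00000048490, chromosome 16, 76287400 to 76373827) of 13.0 to 21.8 CPM. Neither was called in any comparison by edgeR with 40 or 39 mice. In KO mice on control diet Ncor1 was 146 ± 35.9 with Pio and 180 ± 6.31 CPM without (log2 fold change -0.30, standard error 0.16, adjusted p = 0.203), with mouse 13 at 84.3 CPM. The difference of this effect from that in WT mice was -0.47 (standard error 0.22, adjusted p = 0.161). Ttc19, Pigl and Gm12276 overlap Ncor1 on the opposite strand.

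Over the 10 genes and 8 comparisons of 2 groups, 80 exact permutation tests were run, 25 gave a p under 0.05 and the lowest p adjusted over them was 0.106. The share of all tested genes with a p under 0.05 by this test was not counted, and the 80 tests share groups and mice. No p of this test can be under 0.00794, so a test at that limit cannot pass a correction over 80 on its own. Groups failed to overlap in 6 of the 80. None of these 6 came from Pio on HFD in KO mice (0.610% of tested genes), HFD without Pio in KO mice (3.04%) or HFD with Pio in KO mice (2.43%).

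Genes downstream of these receptors were taken from lists. With 40 mice 3.91% of all tested genes were called for Pio on control diet and 1.08% for Pio on HFD in WT mice. In KO mice these shares were 9.01% and 0.0155%. Of 18 tested targets of PPARγ, 9 rose and 0 fell with Pio on control diet in WT mice, with a median log2 fold change of 1.20 against -0.02 over all genes. Cidea and Cidec, lipid droplet proteins, rose by 7.89 and 2.56 on the log2 scale, Cfd (adipsin) by 6.88 and Fabp4, a fatty acid binding protein, by 3.27 (standard errors 0.60, 0.39, 0.87 and 0.61). On HFD 6 rose and 0 fell, with a median of 0.70, among them Cidea (6.10) and Mogat1 (2.20), an acyltransferase of triglyceride synthesis. In KO mice on control diet 4 rose, Fabp5 by 3.18, Slc27a1 by 1.29, Lipe by 0.84 and Pnpla2 by 0.78, with a list median of -0.06. Of these 4, Fabp5 alone was called without mouse 13 (3.501). On HFD in KO mice 0 were called.

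Of 27 tested targets of PPARα, 6 rose and 1 fell with Pio on control diet in WT mice, with a list median of 0.42. Vnn1, a pantetheinase, rose by 1.81 and the peroxisomal thiolase gene Acaa1b by 1.60, whereas Fgf21, a fasting hormone gene, fell by 3.01 on the log2 scale. On HFD 3 rose and 0 fell, among them Acaa1b (1.48) and Vnn1 (1.34). With HFD without Pio 3 rose and 0 fell, among them Pex11a (0.79), a peroxisomal membrane gene, and Cpt1a (0.63), which controls fatty acid entry into mitochondria. In KO mice 0 rose and 2 fell with Pio on control diet, among them Cyp4a10 (-1.55, and -1.34 without mouse 13). Without mouse 13 neither was called, and the list median with all mice was -0.36. On control diet the Pio effect was called as lower in KO than in WT mice for 11 of the 27 and as higher for 1, Fgf21 (2.66). With 39 mice it was so for 12 and 1. Of all tested genes 7.87% were called for this difference with 40 mice and 5.78% with 39, in either direction. The list median of the difference with 40 mice was -0.78, against 0.06 over all genes.

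**Figure D4:**
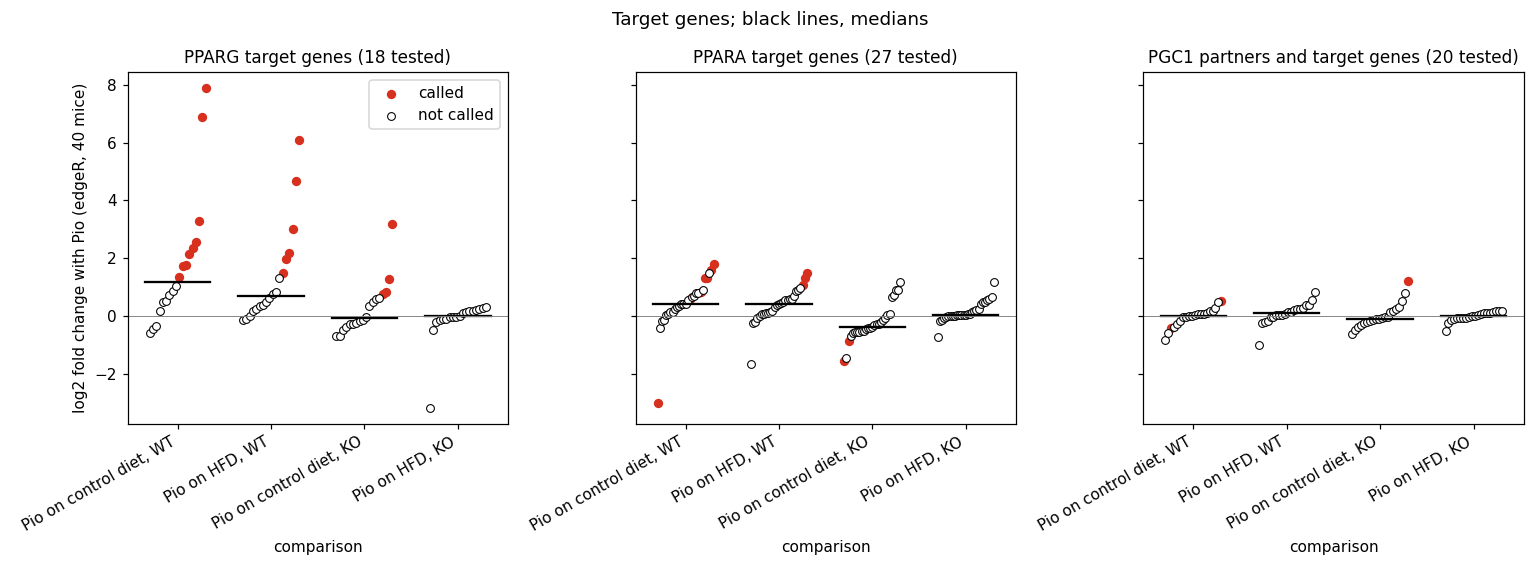
log2 fold change with Pio (vertical axis, edgeR, 40 mice) of each tested gene of 3 target lists in 4 comparisons; filled points are called, open points are not, and black lines are medians. Called PPARγ targets in WT mice all lie above 0, up to 7.89 for Cidea, while the called PGC1 partners and targets there, Mfn2 and Nrf1, lie at 0.54 and -0.40.

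The list of PGC1 partners and targets moved little. Of 20 tested, 1 rose and 1 fell with Pio on control diet in WT mice, Mfn2 (0.54), a mitochondrial fusion gene, and Nrf1 (-0.40), a transcription factor for respiratory genes, with a median of 0.02. In KO mice Esrra, the estrogen-related receptor that PGC1 proteins coactivate, rose by 1.20 and was at -0.01 without mouse 13. HFD with Pio lowered it in KO mice (-1.38, and -0.15 without mouse 13). With 40 mice no PGC1 list gene was called for HFD with or without Pio in WT mice. The nearest were gluconeogenic genes, Pck1 with Pio (0.78, adjusted p = 0.0956) and G6pc without (-0.68, adjusted p = 0.402). With 39 mice 3 were called as higher for HFD with Pio, among them Pck1 (0.77, adjusted p = 0.0215, edgeR).

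Of 12 other partners of RXR tested, Nr1i3, the constitutive androstane receptor, rose by 1.95 with HFD without Pio in WT mice (standard error 0.39, adjusted p = 0.00604, edgeR), as the single called gene with 40 mice. With 39 mice 2 of the 12 rose and 1 fell. In KO mice Pio on control diet raised 4 of the 12 and lowered 1, where 9.01% of all tested genes were called. Those raised included Nr1h2 (1.28), Rara (1.22) and Rarg (1.13), and the one lowered was Nr1i3 (-1.17). None of these 5 calls remained without mouse 13, when 0 were called as higher and 1 as lower. Of 18 other nuclear receptors, 3 rose and 0 fell with Pio on control diet in WT mice, among them Esrrg (2.05) and Nr1d2 (0.63). In KO mice Nr2f6 (1.66), Esrra (1.20) and Nr0b2 (1.07) rose, and none of these was called without mouse 13.

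Among 17 tested coactivators other than PGC1 proteins, 0 were called in any of the 12 comparisons with 40 mice. Pprc1, the PGC1-related coactivator, came nearest for Pio on control diet in WT mice (-0.75, adjusted p = 0.0909). With 39 mice it was called (-0.74, adjusted p = 0.0464, edgeR), and of the 17 genes 1 was called as lower for Pio on control diet, 2 for Pio on HFD and 2 for HFD with Pio in WT mice. Of 12 other corepressors, Gps2, a subunit of the NCoR complex, fell by 1.02 (log2) with Pio on HFD in WT mice (standard error 0.21, adjusted p = 0.00790, edgeR), and Hdac5 rose with Pio on control diet in KO mice (0.83, and 0.13 without mouse 13).

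Clock genes moved in the same mice in which Ppara and Ppargc1a were higher. Of 17 tested clock genes 4 rose and 4 fell with Pio on control diet in WT mice, where 3.91% of all tested genes were called. Npas2 (-2.10), Ciart (2.01), Per3 (1.67) and Cry1 (-1.54) were the farthest from 0. The summed level of the 17 was 447 to 813 CPM in WT control and 849 to 1280 CPM in WT Pio mice. In KO mice 0 were called for Pio on control diet, where the sums were 639 to 938 CPM in control and 563 to 1558 CPM in Pio mice, the last in mouse 13. The part of these genes in the values of Ppara, Ppargc1a and Ppargc1b was not tested.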

How the data were processed

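Liver RNA of 40 mice was sequenced after poly-A selection. The authors aligned the reads with STAR 2.0.4b to GRCm38 and counted them per gene with Subread featureCounts 1.4.5 (submitters' processing notes), and the deposited values are raw counts, 1 table per genotype. A further deposited column holds gene GC content (percent), with no word on how it was made. Repeated lines (598 in KO, 574 in WT, none with differing counts) were reduced to 1, the tables were joined by Ensembl identifier, 355 rRNA genes were removed, and the low filter kept genes reaching 1 CPM in 5 or more mice (27297 removed, 96 genes found in 1 table left out). All 40 columns matched a mouse and 0 did not.

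TMM normalization and edgeR's robust quasi-likelihood F test (edgeR 4.0.16, R 4.3.3) were run in 1 model of 8 groups, with Benjamini-Hochberg adjustment over all genes and calls at 0.05. Group values are TMM-normalized CPM. Comparisons were Pio against no Pio and HFD against control diet in each genotype, and 4 differences of Pio effects. Limma 3.58.1 (voomWithQualityWeights), DESeq2 1.42.0, RLE size factors, no filter, filterByExpr, separate genotypes, rRNA kept and each mouse left out were alternatives. Fits combining these with the removal of mouse 13 were chosen after seeing the data. Exon lengths and overlaps came from GENCODE M21. Log2 values for the pattern of a gene used a prior count of 2. The fit was tested on simulated data. Python 3.11.15, numpy 2.4.6, pandas 2.3.3 and matplotlib 3.10.9 were also used.

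The 10 genes and the lists were chosen with earlier results of these data known. All 10 genes are named. From each list, up to 4 called genes with the largest change per comparison described were named, or the one with the smallest p, and some genes that this rule names are not reported here. The 3 genes of most like pattern, of at least 5 CPM, were named for each of the 10 genes called in a comparison of 2 groups. Depth was 15788242 to 49857017 counts per mouse before the removal of rRNA, and the errors given hold mouse-to-mouse spread and counting noise and nothing else. The 32851 RefSeq windows are of 300 bases (GRCm38.p6). Amino acid sequences and binding data were not used here.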

Additional observations from a re-analysis of the deposited data

Results flagged for a closer look

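In 14 of the 80 sets of 5 values (10 genes in 8 groups) 1 mouse lay outside the others by Dixon's test at the 95% level, which chance does in about 1 in 20 sets. KO Pio mouse 13 was such a mouse for Ppard (42.37 CPM), Rxrb (109.6 CPM) and Ppargc1b (47.25 CPM), each time above its group. KO HFD mouse 9 was below its group for Ppara (74.73 CPM) and Rxra (558.2 CPM) and above it for Ppard (23.41 CPM). WT HFD mouse 829 was above its group for Ppard (73.44 CPM), and KO control mouse 1 below it (9.205 CPM). WT HFD-Pio mouse 840 was above for Rxrb (44.33 CPM) and below for Ppargc1a (12.54 CPM). The others were Rxra in WT Pio mouse 841 (744.4 CPM), Ncor1 in WT control mouse 831 (220.3 CPM) and WT Pio mouse 845 (297.9 CPM), and Nrip1 in WT control mouse 832 (25.11 CPM), all above their groups.

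The Pio effect on control diet differed between KO and WT mice by edgeR's interaction test for 3 genes: Pparg (-1.2052, log2, KO minus WT), Ppard (1.5183) and Rxrb (0.9622). Without mouse 13 the adjusted p by edgeR was 0.0250 for Pparg, 0.0927 for Ppard and 0.102 for Rxrb. Limma with sample weights called all 3 with and without mouse 13 (15.4% and 15.9% of tested genes). DESeq2 without mouse 13 called Pparg alone.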

How the results depend on the processing

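With all 40 mice edgeR called 2 of the 10 genes for Pio on control diet in KO mice, 3 for its difference between genotypes, and 0 in the other 10 comparisons. Percentages here are the share of all tested genes called in the same setting and comparison. For Pio on control diet in WT mice DESeq2 called 1 gene (6.43%), limma with sample weights 2 with and without mouse 13 (23.9% and 24.1%), separate fits of WT and KO mice 2 (7.52%), and DESeq2 without mouse 13 4 (17.6%). For Pio on HFD and for HFD without Pio in WT mice, DESeq2 without mouse 13 called 2 each (14.4% and 9.35%). For HFD with Pio in WT mice limma called 5 with and without mouse 13 (22.7% in both), and 1 was called by DESeq2 (3.01%, and 11.1% without mouse 13), with RLE size factors (1.46%), in separate fits (1.63%) and with rRNA genes kept (1.26%). For Pio on control diet in KO mice DESeq2 called 3 (11.3%) and limma 3 with and without mouse 13 (9.40% and 9.20%), 2 were called with RLE (10.3%), filterByExpr (8.87%) or rRNA genes kept (9.05%), 1 with no filter (2.94%) or in KO mice alone without mouse 13 (2.24%), and 0 in separate fits (0%) or by DESeq2 without mouse 13 (181 of 12887 genes). For HFD with Pio in KO mice 1 was called by DESeq2 (7.95%), limma (2.39%, and 2.40% without mouse 13), RLE (6.36%) and filterByExpr (4.97%). Limma called 1 diet dependence in WT mice, Pparg, with and without mouse 13 (10.6% and 11.0%). For genotype dependence on control diet DESeq2 called 4 (11.0%), limma 3 with and without mouse 13 (15.4% and 15.9%), RLE 3 (8.04%), filterByExpr 3 (7.37%), the fit with rRNA genes kept 3 (7.86%), that with no filter 2 (2.03%) and DESeq2 without mouse 13 1 (7.64%). The log2 fold change of Rxrb for Pio in KO mice turned to -0.0014 by DESeq2 without mouse 13, a value near 0. Leaving out 1 mouse at a time, the calls ranged from 0 to 4 (Pio on control diet, WT), 0 to 2 (Pio on HFD, WT), 0 to 1 (HFD without and with Pio, WT), 0 to 4 (Pio on control diet, KO), 0 to 2 (HFD with Pio, KO) and 1 to 4 (genotype dependence, control diet), and stayed at 0 in the other 5 comparisons. The cause of these changes was not tested.

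Fold changes without WT HFD mouse 829 were -0.34 for Ppard (Pio on HFD), 0.22 for Rxra and 0.18 for Ppargc1b (HFD without Pio), against -0.88, 0.46 and 0.71 with it. No paired analysis was possible because mouse numbers differ between all groups. Fits that combine another tool with the removal of mouse 13 were chosen after seeing the data.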

Other observations

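The genes that set KO Pio mouse 13 apart differed in base composition. Across 12942 genes its log2 difference from the other KO Pio mice had a Spearman rho of 0.54 with the GC content of the gene, and that of WT HFD mouse 829 from its group had a rho of 0.33. Such correlations were not particular to these mice: WT HFD mouse 826 had a rho of -0.46 and KO Pio mice 11, 14, 15 and 12 of -0.52, -0.47, -0.43 and -0.37, where the mice compared with included 829 and 13 respectively. In mouse 13 the members with the highest GC content were above the rest of the group, Rxrb (57.05% GC) by 1.78, Rxra (54.37%) by 1.04 and Ppard (52.87%) by 1.45 on the log2 scale. Those with the lowest were below it or near it, Ppargc1a (38.96%) at -2.68, Ncor1 (39.33%) at -0.94 and Pparg (39.51%) at 0.10. The part of base composition in these values was not tested.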
